A study of Mus musculus with 2 samples.

Results

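The core circadian clock genes are 10 genes chosen by symbol, Arntl, Clock, Npas2, Per1, Per2, Per3, Cry1, Cry2, Nr1d1 and Nr1d2, out of 32285 genes counted in colon nuclei. All 10 were found under 1 gene ID each. Single-nucleus RNA sequencing, which counts transcripts (as unique molecular identifiers, UMIs) in isolated nuclei, was run on the colon of 15-week-old male C57BL/6 mice, either Pink1 knockout or wild-type littermates. Pink1 encodes a kinase that tags damaged mitochondria. Each genotype was 1 library of nuclei pooled from 3 mice, all housed under 12 h of light and 12 h of dark. The sources used here do not give the hour at which the colon was taken, and genotype, library and labelled batch (1 for wild type, 2 for knockout) cannot be told apart.

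The clock is a feedback loop of transcription that runs over the day in most cells, including those of the gut. BMAL1, the product of Arntl, pairs with CLOCK or with its relative NPAS2, binds E-box elements and turns on the Period (Per) and Cryptochrome (Cry) genes, whose proteins then block that pair. The same pair turns on Nr1d1 and Nr1d2, which encode the nuclear receptors REV-ERB alpha and beta, and these repress Arntl through a short element that they share with the activating ROR receptors. D-box factors such as DBP and TEF form a further arm, acting on genes that include Per genes. Because each arm peaks at its own time of day, the level of one of these genes in a single collection depends on the hour of collection.

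Promoter letters were read for the genes whose levels are described most closely below, to show which of these elements lie near their starts. RefSeq windows on GRCm38.p6, each from 250 bases before to 50 bases after a start site, were matched for 9 of the 10 genes (13 windows). Per2 had no window and was not searched. The letters searched on both strands were CACGTG for the E-box, TTATGTAA and TTACGTAA for the D-box, AGGTCA for the core of the ROR and REV-ERB element, and TGACGTCA and TGACGTAA for the cAMP response element. The longer TAGGTCA contains the core AGGTCA. Capitals mark the matches in the stretches below, which read 5′ to 3′ on the gene's own strand. They lie at chr7:113207531-113207560 (plus strand) for Arntl, chr11:69098753-69098842 (plus) for Per1, chr4:151044791-151044880 (minus) for Per3, chr10:85185067-85185156 (minus) for Cry1 and chr14:18239136-18239225 (minus) for Nr1d2. The Arntl stretch covers bases 21 to 50 after 1 of its annotated starts, the Per1 stretch lies before 1 of several starts, and the others lie before the gene's start.
Arntl: aggcagaaagTAGGTCAgggacggaggtgc
Per1: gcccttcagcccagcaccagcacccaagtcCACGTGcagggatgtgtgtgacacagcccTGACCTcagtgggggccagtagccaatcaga
Per3: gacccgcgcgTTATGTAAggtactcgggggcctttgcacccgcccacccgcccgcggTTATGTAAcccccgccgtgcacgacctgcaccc
Cry1: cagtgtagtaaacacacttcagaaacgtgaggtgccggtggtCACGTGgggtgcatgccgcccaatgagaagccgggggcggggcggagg
Nr1d2: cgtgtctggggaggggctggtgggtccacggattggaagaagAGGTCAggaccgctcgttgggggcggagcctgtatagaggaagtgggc

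Per3 held the D-box letters TTATGTAA in 2 places, 205 and 158 bases before its start. Of all 32851 windows 0.938% held these letters once or more, and 0.0213% (7 windows) held them at least 2 times. TTACGTAA, found in 0.119% of windows, was in no member's window. The E-box CACGTG, present in 7.15% of all windows, was matched in 1 window each of Per1 (166 bases before the start) and Cry1 (60 bases before). The 7-base TAGGTCA, in 2.61% of windows, was matched only in Arntl, 31 bases after the start. The 6-base AGGTCA is common, in 16.3% of windows, and was matched in Arntl, Clock, Per1 and Nr1d2. The cAMP response element letters, in 2.28% of all windows, were in none of the 13. A match is a string of letters, not a measured binding site.

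The wild-type library gave 8256 nuclei with a median of 1626 UMIs, and the knockout library 10966 with a median of 1570. Levels are counts scaled to 1000000 UMIs of nuclear-encoded genes (CPM). Ratios are knockout over wild type, and the range in parentheses after a value is its 95% interval, which reflects counting error alone. With 1 library per genotype there is no replicate and no test. Genes 1.5-fold or more apart are counted only to describe size. Nuclei were clustered without the clock genes among the genes used, and names come from marker genes. The classes with at least 100 nuclei in each library were crypt base and proliferating-like ("crypt-base-like" below), colonocyte-like (absorptive), goblet-like (mucus-secreting), fibroblast-like, smooth muscle-like, macrophage and dendritic-like, and 2 mixed clusters, one with B and T lymphoid markers and one with interstitial cell of Cajal and pericyte markers. A further 4 clusters met no marker rule and are called by leading genes, the Gsdmc3/Gk, Plet1/Car8, Apol10a/Hsd3b3 and Meg3/Rian clusters. Their Epcam level, an epithelial marker, was 191 to 690 CPM, against 124 CPM or less outside the epithelium. The Plet1/Car8 cluster held more Muc2, the goblet mucin, than the goblet-like class (19770 against 12170 CPM in wild type), and so did the Meg3/Rian cluster (19830). The antimicrobial genes Reg3b and Reg3g also led the Apol10a/Hsd3b3 cluster. Pink1 itself had 170 counts in wild type and 113 in the knockout library, a ratio of 0.541 (0.422 to 0.690), and the sources used here do not name the deleted part of the gene. The libraries shared 28 barcodes, 22 of them among kept nuclei, and without them no ratio over all nuclei moved beyond its interval. In 1 of 2 smooth muscle-like clusters all 222 nuclei came from the knockout library, and the counts of members apart in that class are given with and without that cluster. Outside the epithelium, where Muc2 should be absent, it was found at 291.5 to 1171 CPM, which is read as free RNA. Subtracting 10% of free RNA moved no ratio of a clock gene in a class beyond its interval.

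Over all nuclei the REV-ERB genes and Per3 were lower in the Pink1 knockout library, Per1 and Cry1 were higher, and Clock, Npas2 and Per2 were nearly level. Nr1d1 had a ratio of 0.408 (0.357 to 0.466), Nr1d2 one of 0.507 (0.475 to 0.541) and Per3 one of 0.653 (0.615 to 0.692). Per1 stood at 2.71 (2.35 to 3.13) and Cry1 at 1.54 (1.27 to 1.87). Thus 2 of the 10 genes were at least 1.5-fold higher, where 6.87% of all 16564 measured genes were, and 3 were at least 1.5-fold lower, where 8.17% were. The median log2 ratio of the 10 was 0.05 and that of all measured genes -0.02, since members lay on both sides. The libraries were also compared with each nucleus thinned to 500 UMIs, so that all had the same depth. Cry1 crossed the 1.5-fold line under other settings (1.38 to 1.62), and Per3 had a ratio of 0.697 with classes weighted alike in both libraries.

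**Figure D1:**
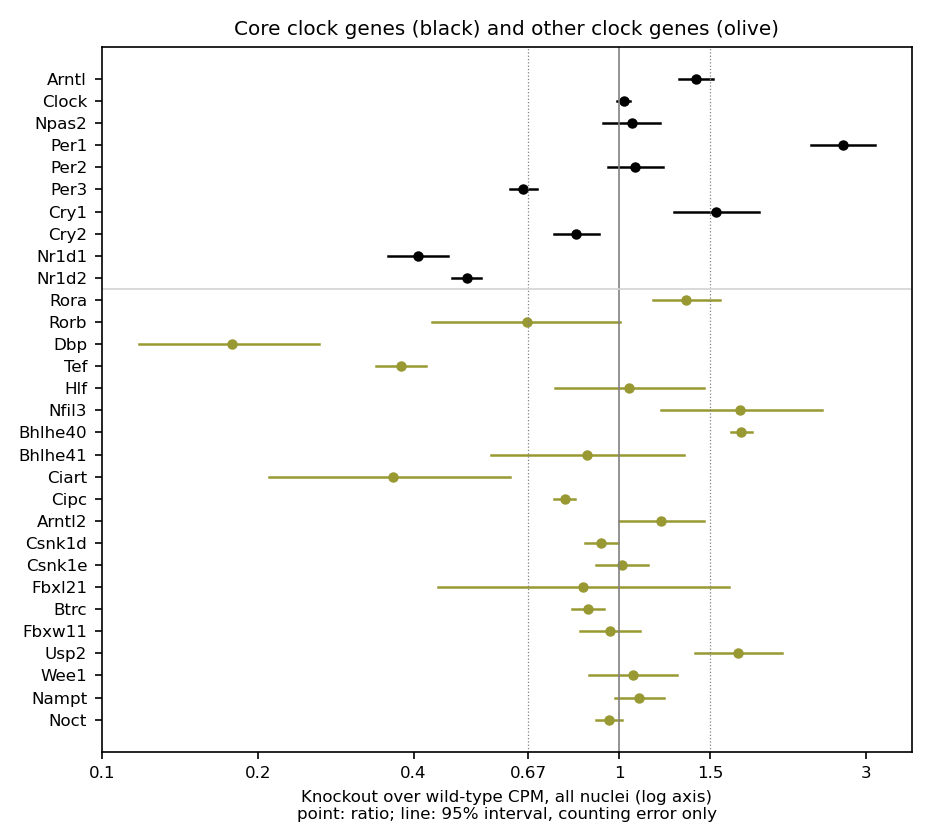
Ratio of knockout to wild-type CPM over all nuclei for the 10 core clock genes (black) and 20 other clock genes (olive), on a log axis. Points are ratios, lines 95% intervals for counting error, and dotted lines 1.5-fold. Nr1d1 (0.408), Nr1d2 (0.507), Dbp (0.178) and Tef (0.378) lie on the left, Per1 (2.71) on the right.

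Among the activators, Arntl (ENSMUSG00000055116; GRCm38 chromosome 7, 113207465 to 113314126, plus strand), which encodes the partner common to both pairs, had 1117 wild-type and 1934 knockout counts, or 74.1 and 104 CPM. Its ratio was 1.41 (1.31 to 1.52), short of 1.5-fold, and the point estimate was above 1 in all 12 classes and clusters compared. In colonocyte-like nuclei, where its level was highest, Arntl was at 102 CPM in wild type and 149 in the knockout library, a ratio of 1.47 (1.25 to 1.73). The Meg3/Rian cluster had the lowest epithelial level in wild type and the largest ratio, with 35.1 and 87.5 CPM and a ratio of 2.49 (1.55 to 4.13). In fibroblast-like nuclei Arntl was at 77.4 and 120 CPM, a ratio of 1.56 (1.10 to 2.23). B and T lymphoid-like nuclei gave the ratio nearest 1, from 11 and 9 counts, at 1.05 (0.384 to 2.78). Among classes with too few nuclei to compare, enteroendocrine-like nuclei (90 and 135) went the other way. They had 17 and 6 Arntl counts, a ratio of 0.267 (0.0862 to 0.710). Blood endothelium-like nuclei, also too few, had 2 and 15 counts, a ratio of 3.44 (0.801 to 31.0). In all, 6 classes were 1.5-fold or more higher, of which 4 kept that under every other setting run, and the interval lay above 1 in 6. For a class with a cell type name 8 to 12 other settings were run per gene, and for a cluster called by leading genes 4, namely thinning, another scaling, the removal of 1 nucleus and the subtraction of free RNA. Resolved into its 4 clusters, the crypt-base-like class held the 1 cluster of 19 measured in which Arntl was not above 1, with 67 and 79 counts and a ratio of 0.955 (0.681 to 1.34).

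Clock (ENSMUSG00000029238; GRCm38 chromosome 5, 76209868 to 76304792, minus strand), which encodes the usual partner of BMAL1, had the most counts of the 10, 8060 and 10101, and its levels over all nuclei were 535 and 545 CPM, a ratio of 1.02 (0.990 to 1.05). Where Clock did vary was between cell classes. Crypt-base-like nuclei had 932 CPM in wild type and 981 in the knockout library, the Gsdmc3/Gk cluster 826 and 836, and the Apol10a/Hsd3b3 cluster 456 and 489. Both steps down between these groups were larger than counting error in each library, but the first did not hold in every crypt-base-like cluster. Colonocyte-like nuclei followed with 403 and 381 CPM, and goblet-like nuclei held 261 and 336. Stromal and immune classes lay between 138 and 373 CPM. Within the crypt-base-like class, the cluster led by Fut9 had 1217 and 1327 CPM. The cluster led by Ntrk2, with Lgr5 among its leading genes, had 674 and 676, below the Gsdmc3/Gk cluster in both libraries. The cluster led by Knl1 had 743 and 856 CPM, and the one led by Cenpf 940 and 789. The crypt-base-like level was 6.74 times that of B and T lymphoid-like nuclei in wild type (4.36 to 11.1) and 3.26 times in the knockout library (2.33 to 4.72). Only in those lymphoid nuclei was Clock 1.5-fold higher, with 20 and 34 counts, a ratio of 2.18 (1.22 to 3.99) that ranged from 1.44 to 5.14 under other settings. For goblet-like nuclei it was 1.29 (1.15 to 1.44).

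Npas2 (ENSMUSG00000026077; GRCm38 chromosome 1, 39193731 to 39363236, plus strand), which encodes the alternative partner of BMAL1, had 423 and 549 counts and a ratio of 1.06 (0.928 to 1.201). By the mean of both libraries it was at its highest in the Plet1/Car8 cluster (46.3 and 44.9 CPM), the Meg3/Rian cluster (52.0 and 36.4), colonocyte-like nuclei (40.8 and 40.5) and goblet-like nuclei (29.0 and 39.4). Macrophage and dendritic-like nuclei had 0 counts in both libraries, which allows up to 17.4 CPM in wild type and 10.7 in the knockout library at 3 counts. Of 9 classes measured, 8 were within 1.5-fold. Smooth muscle-like nuclei had 5 and 17 counts, a ratio of 1.98 (0.702 to 6.87) that was 0.971 with doublets kept.

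**Figure D2:**
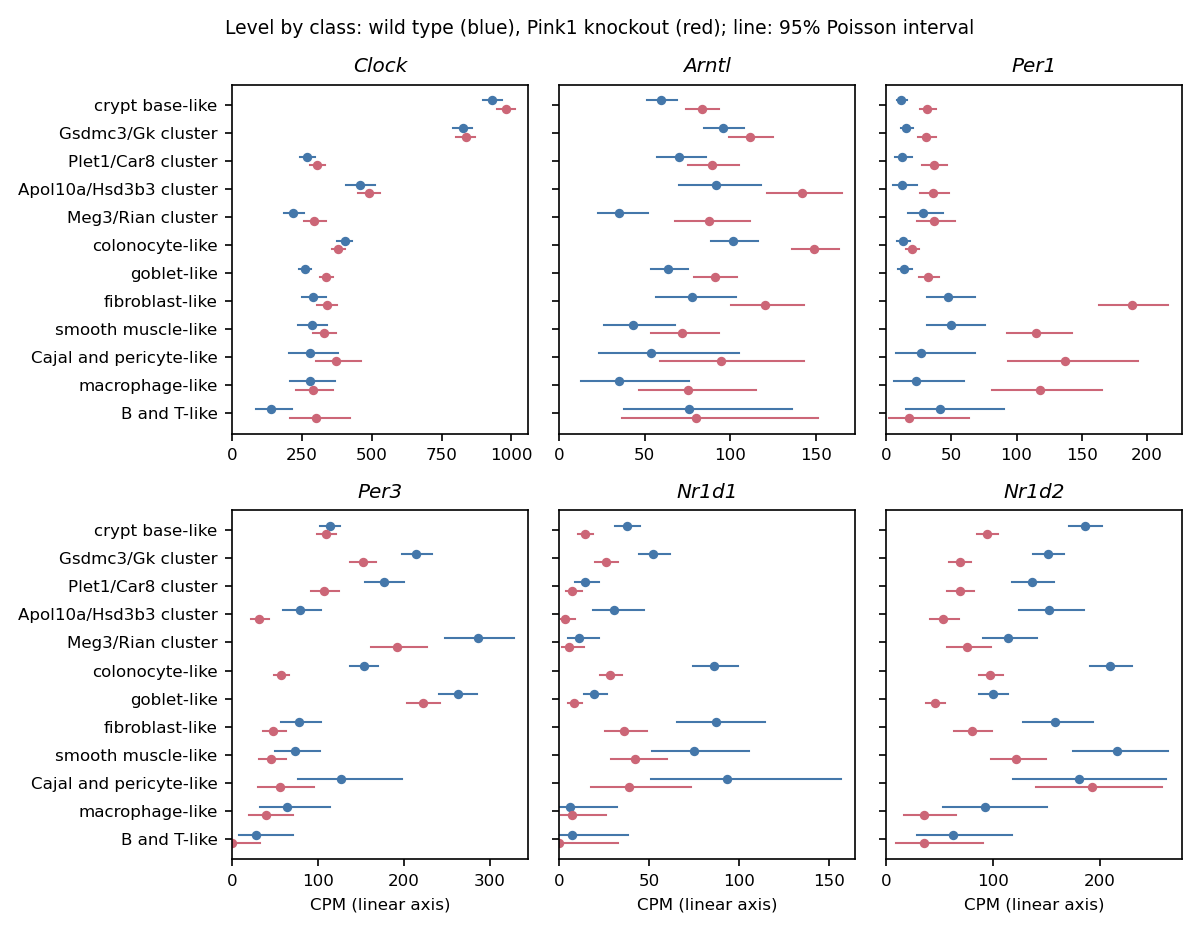
Level (CPM, linear axis) of 6 clock genes in each class or cluster of nuclei, for wild type (blue) and Pink1 knockout (red), with 95% Poisson intervals as lines. Clock separates crypt-base-like nuclei and the Gsdmc3/Gk cluster (826 to 981 CPM) from the rest, and Per1 in the knockout library is highest in fibroblast-like nuclei (188 CPM).

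The 3 Period genes, which encode repressors of the BMAL1 pair, did not move together. Per1 (ENSMUSG00000020893; GRCm38 chromosome 11, 69095217 to 69109960, plus strand) was the furthest above wild type of the 10 genes, with 254 and 845 counts, or 16.9 and 45.6 CPM. Its counts came from 244 wild-type and 774 knockout nuclei, with at most 3 in a nucleus. Per1 was above 1 in all 11 classes measured and at least 1.5-fold higher in 10, of which 9 kept that under every other setting run. The exception to the last count, colonocyte-like nuclei, had 12.8 and 19.6 CPM and a ratio of 1.53 (0.959 to 2.48), with a range of 1.35 to 3.70 (the latter with nuclei thinned to 500 UMIs). In the Meg3/Rian cluster the ratio was 1.29 (0.699 to 2.43). B and T lymphoid-like nuclei had too few Per1 counts to be measured, 6 and 2, and went the other way at 0.427 (0.0421 to 2.39).

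In the knockout library stromal and macrophage nuclei held the most Per1. Fibroblast-like nuclei had 28 and 200 counts, or 47.1 and 188 CPM, a ratio of 4.00 (2.68 to 6.17). Smooth muscle-like nuclei had 50.01 and 115 CPM, a ratio of 2.31 (1.43 to 3.87), which was 1.54 without the cluster found in the knockout library alone and 4.27 with nuclei thinned. The interstitial cell of Cajal and pericyte-like cluster (4 and 32 counts) and macrophage and dendritic-like nuclei (4 and 33) had the largest ratios, 5.14 (1.822 to 20) and 5.09 (1.81 to 19.8), with wide intervals. In crypt-base-like nuclei the levels were lower, 11.7 and 31.5 CPM, with a ratio of 2.70 (1.84 to 4.05). Per1 in fibroblast-like nuclei exceeded that in colonocyte-like nuclei 3.67-fold in wild type (2.10 to 6.43) and 9.62-fold in the knockout library (7.17 to 13.1).

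Per1 is also known as an immediate early gene, induced within minutes by stimuli. The 10 immediate early genes listed for this purpose, Egr1, Fos, Fosb, Jun, Junb, Ier2, Dusp1, Nr4a1, Atf3 and Btg2, were all at least 1.5-fold higher over all nuclei, with ratios from 2.15 (Jun) to 26.8 (Egr1) and a median log2 ratio of 2.24. By class their median log2 ratio was 3.62 among smooth muscle-like nuclei (1.55 without the cluster found in the knockout library alone) and 3.61 among fibroblast-like ones. It was 2.37 in macrophage and dendritic-like nuclei and 2.31 in the interstitial cell of Cajal and pericyte-like cluster, which had the largest Per1 ratios, and 2.66 in the Meg3/Rian cluster, where the Per1 ratio was 1.29. The other classes lay between 0.92, in colonocyte-like nuclei, and 2.70, in the Plet1/Car8 cluster. Each median covers only the listed genes with at least 20 counts in that class, from 2 in B and T lymphoid-like nuclei to all 10. Without the cluster found in the knockout library alone, 8 were measured in smooth muscle-like nuclei. Of these Atf3 went the other way, with 17 and 3 counts and a ratio of 0.176 (0.0330 to 0.607). Nr4a1 was among the leading genes of the smooth muscle-like cluster found in the knockout library alone. The part of the immediate early genes in the Per1 values was not tested.

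Per2 (ENSMUSG00000055866; GRCm38 chromosome 1, 91415982 to 91459324, minus strand) was level over all nuclei, with 455 and 601 counts, 30.2 and 32.4 CPM and a ratio of 1.07 (0.9495 to 1.22). Underneath that, colonocyte-like nuclei stood apart from the rest. They had 63 and 39 counts, or 28.9 and 12.7 CPM, a ratio of 0.441 (0.288 to 0.668), and kept a ratio of 0.557 or less under every other setting run. The largest of the 3 colonocyte-like clusters was not the same in both libraries, and Per2 had a ratio below 1 in each, with ratios of 0.3003 (11 and 6 counts), 0.482 (40 and 16) and 0.661 (12 and 17). In the other 8 classes measured the point estimate was above 1. It reached 1.98 (1.04 to 3.95) in the Meg3/Rian cluster and 1.78 (0.884 to 3.89) in fibroblast-like nuclei, and in goblet-like nuclei it was 1.40 (1.03 to 1.93) at 33.3 and 46.8 CPM. Thinning to 500 UMIs gave 0.615 in place of 1.02 in the Gsdmc3/Gk cluster, and 2.02 in place of 1.02 in smooth muscle-like nuclei. Whether these classes differ beyond the variation between mice was not testable with 1 library each.

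Per3 (ENSMUSG00000028957; GRCm38 chromosome 4, 151003652 to 151044665, minus strand), whose window held the D-box pair shown above, had 2515 and 2018 counts, or 167 and 109 CPM. The point estimate was below 1 in all 11 classes measured, and the interval lay below 1 in 8. Colonocyte-like nuclei gave the lowest ratio, 0.373 (0.309 to 0.449), at 153 and 57.1 CPM. The Apol10a/Hsd3b3 cluster was next with 79.3 and 30.8 CPM, a ratio of 0.388 (0.246 to 0.605). These were the 2 of 7 classes 1.5-fold or more lower that stayed so under every other setting run. Crypt-base-like nuclei had nearly the same Per3 level in both libraries, 114 and 109 CPM, a ratio of 0.961 (0.830 to 1.11). Goblet-like nuclei, at 263 and 222 CPM with a ratio of 0.845 (0.748 to 0.954), and the Meg3/Rian cluster, at 286 and 193 CPM, held the most Per3 by the mean of both libraries. The goblet-like clusters differed, with 330 and 306 CPM in the one led by Mptx1 and Reg4. The one led by Clca1 and Fcgbp had 145.5 and 126.8 CPM, below the Gsdmc3/Gk cluster in both libraries. The steps from the Meg3/Rian to the Gsdmc3/Gk cluster (215 and 152 CPM) and from there to the Plet1/Car8 cluster (176 and 107) exceeded counting error in both libraries.

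In stroma Per3 was sparser. Smooth muscle-like nuclei had 32 and 34 counts and a ratio of 0.619 (0.371 to 1.04), which was 0.840 without the cluster of knockout nuclei alone and 0.361 with the stricter filter. The interstitial cell of Cajal and pericyte-like cluster had 19 and 13 counts, a ratio of 0.439 (0.199 to 0.938) that was 1.28 after thinning. Camta1, annotated on the same strand, spans all 41014 bases of Per3 and had 816 and 858 counts (ratio 0.855, 0.776 to 0.942). The sources used here do not say how reads shared by both were assigned. Per3 lies 12.7 Mb from Pink1 on chromosome 4, and of the 16 other measured genes within 1 Mb of Per3, 1 was 1.5-fold higher and 2 were lower.

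The Cryptochromes, the partners of the Period proteins in repression, also parted. Cry1 (ENSMUSG00000020038; GRCm38 chromosome 10, 85131700 to 85185064, minus strand) was the scarcest member, with 169 and 320 counts, or 11.2 and 17.3 CPM. Colonocyte-like nuclei supplied 53 and 138 of them, at 24.3 and 45.02 CPM, with a ratio of 1.85 (1.34 to 2.60), the only class whose interval lay above 1 among the 6 measured. The ratio there stayed between 1.52 and 2.40 under every other setting run. Fibroblast-like nuclei had 13 and 15 counts and a ratio of 0.646 (0.287 to 1.47). The Plet1/Car8 cluster had 11 and 13 counts and a ratio of 0.992 (0.410 to 2.45), which was 3.17 after thinning, when 1 and 4 nuclei held a count.

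Cry2 (ENSMUSG00000068742; GRCm38 chromosome 2, 92403646 to 92434043, minus strand) had 794 and 806 counts, or 52.7 and 43.5 CPM, a ratio of 0.826 (0.748 to 0.912). It was lower in colonocyte-like nuclei, at 78.8 and 46.0 CPM, with a ratio of 0.584 (0.464 to 0.734), and in the Apol10a/Hsd3b3 cluster, at 45.8 and 20.5 CPM, with a ratio of 0.448 (0.251 to 0.793). The Meg3/Rian cluster was the other class 1.5-fold or more lower, with 38 and 26 counts and a ratio of 0.656 (0.383 to 1.11). Of these 3 only the Apol10a/Hsd3b3 cluster stayed so under every other setting run, since the ratio reached 0.713 in colonocyte-like nuclei and 0.842 in the Meg3/Rian cluster. Fibroblast-like nuclei, highest in Cry2 among the 12 compared classes by the mean of both libraries, had 97.6 and 125 CPM and a ratio of 1.28 (0.936 to 1.78). Smooth muscle-like nuclei had 97.8 and 67.6 CPM and a ratio of 0.691 (0.452 to 1.06), which was 1.15 after thinning. Taken as a class, colonocyte-like nuclei thus held more Cry1 and less Cry2, Per2 and Per3 in the knockout library than in wild type. The lower Cry2 was not shared by all their clusters. Its ratios there were 0.488 (88 and 78 counts), 0.324 (23 and 16) and 0.929 (61 and 47), the last with an interval of 0.62 to 1.38.

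The REV-ERB genes, which encode repressors of Arntl, were the members lowest against wild type. Nr1d1 (ENSMUSG00000020889; GRCm38 chromosome 11, 98767932 to 98775333, minus strand) had 664 wild-type and 333 knockout counts, from 569 and 305 nuclei with at most 4 in a nucleus, or 44.0 and 18.0 CPM. All 9 classes measured were at least 1.5-fold lower, and so were all 14 clusters with enough counts. The interval lay below 1 in 7 of the 9 classes. In the Plet1/Car8 cluster, with 20 and 12 counts, the ratio was 0.504 (0.225 to 1.08). The Apol10a/Hsd3b3 cluster had 20 and 4 counts, the lowest ratio at 0.112 (0.0279 to 0.335). In colonocyte-like nuclei the level was 86.1 CPM in wild type and 28.1 in the knockout library, a ratio of 0.326 (0.249 to 0.423). Crypt-base-like nuclei had 37.6 and 14.2 CPM, a ratio of 0.378 (0.267 to 0.530), and fibroblast-like nuclei 87.5 and 35.8 CPM, a ratio of 0.409 (0.262 to 0.633). Among neighbours in the order of Nr1d1 levels, the Gsdmc3/Gk cluster (52.4 and 25.8 CPM) and crypt-base-like nuclei were the 1 pair that differed beyond counting error in both libraries.

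Of those 9 classes, 5 stayed 1.5-fold or more lower for Nr1d1 under every other setting run. Thinning to 500 UMIs gave 1.02 in goblet-like nuclei (41 and 19 counts before it, ratio 0.422), 0.773 in the Gsdmc3/Gk cluster (0.493 before) and 1.12 in the interstitial cell of Cajal and pericyte-like cluster. In that last cluster, with 14 and 9 counts, the ratio was 0.413 (0.158 to 1.02), and 0.0764 with the stricter filter. Smooth muscle-like nuclei had 75.0 and 42.4 CPM, a ratio of 0.565 (0.337 to 0.948) that reached 0.721 under other settings. Thra, on the opposite strand, overlaps Nr1d1 by 1075 bases. It had 1374 and 1845 counts and a ratio of 1.09 (1.02 to 1.17), and the sources used here do not say whether counting used strand.

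Nr1d2 (ENSMUSG00000021775; GRCm38 chromosome 14, 18204054 to 18239127, minus strand) gave more counts than Nr1d1, with 2372 and 1479, or 157 and 79.8 CPM. It was 1.5-fold or more lower in 10 of 11 classes, and the interval lay below 1 in the same 10. In the 5 epithelial groups with the most nuclei the ratio lay between 0.455 and 0.507. Crypt-base-like nuclei had 186 and 94.3 CPM (ratio 0.507, 0.442 to 0.581), colonocyte-like nuclei 210 and 97.5 CPM (0.465, 0.4004 to 0.539) and goblet-like nuclei 99.8 and 45.5 CPM (0.455, 0.357 to 0.578). Fibroblast-like nuclei, at 158 and 80.0 CPM, had a ratio of 0.506 (0.373 to 0.686). The Apol10a/Hsd3b3 cluster was lowest again, with 153 and 53.0 CPM and a ratio of 0.347 (0.249 to 0.482).

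The exception for Nr1d2 was the interstitial cell of Cajal and pericyte-like cluster, with 27 and 45 counts and a ratio of 1.07 (0.650 to 1.79). In 7 of the 10 classes Nr1d2 stayed 1.5-fold or more lower under every other setting run. The other three were smooth muscle-like nuclei (0.564, and 0.681 without the cluster of knockout nuclei alone), the Meg3/Rian cluster (0.663, and 0.962 after thinning) and macrophage and dendritic-like nuclei. These last had 16 and 10 counts and a ratio of 0.386 (0.156 to 0.904), which was 1.10 after thinning.

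**Figure D3:**
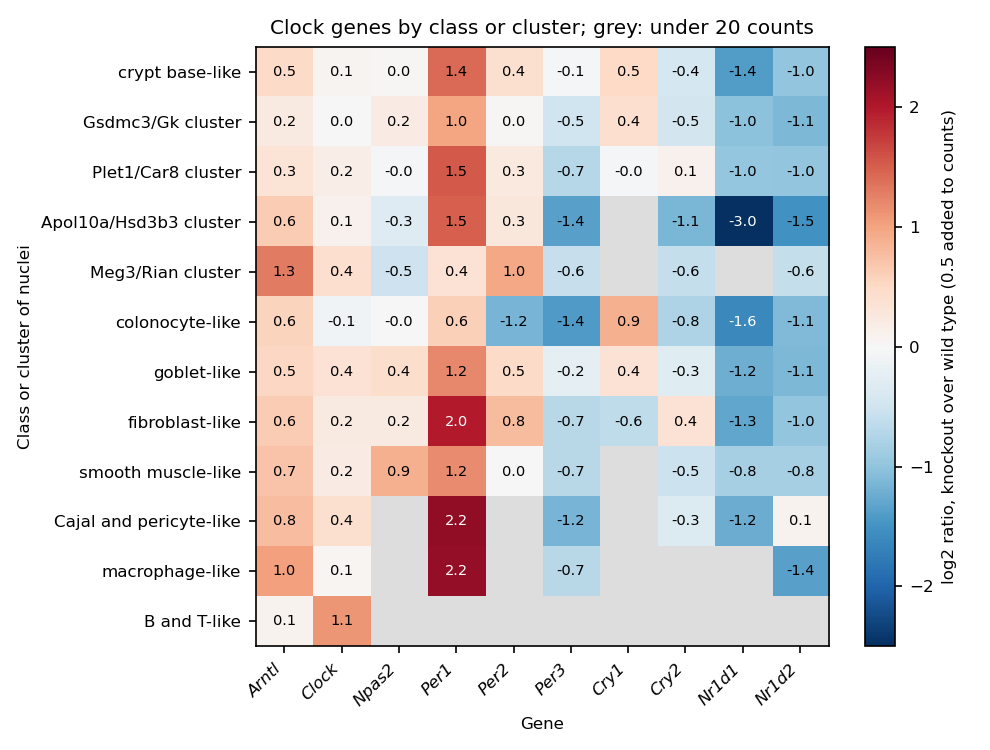
Log2 ratio of knockout to wild type for the 10 clock genes (columns) in 12 classes or clusters of nuclei (rows), with 0.5 added to each count and grey where a gene had under 20 counts. Where measured, the Nr1d1 and Nr1d2 columns are blue except for Nr1d2 in the Cajal and pericyte-like row, the Per1 column is red throughout, and Per2 is blue only in the colonocyte-like row.

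Counted by class, colonocyte-like and fibroblast-like nuclei each had 7 of 10 members apart. In colonocyte-like nuclei 2 of 10 were 1.5-fold or more higher and 5 lower, where 7.65% and 12.9% of 10384 measured genes were. In the Apol10a/Hsd3b3 cluster 2 of 9 were higher and 4 lower (10.6% and 9.85% of all genes measured there), and in fibroblast-like nuclei 3 and 4 of 10 (11.5% and 10.6%). Some of these came within 1.5-fold under another setting. They were Per2 (1.23 to 2.17), Per3 (0.495 to 0.791) and Cry1 (0.597 to 0.880) in fibroblast-like nuclei. Per1 and Cry2 in colonocyte-like nuclei and Arntl in the Apol10a/Hsd3b3 cluster did so too. Smooth muscle-like nuclei had 3 higher and 3 lower of 9 (14.2% and 10.8%). Without the cluster found in the knockout library alone they had 2 higher, Arntl (1.68) and Per1 (1.54), and 1 lower, Nr1d1 (0.603), of 8 measured (15.3% and 13.3% of all genes). Per1 alone was higher in crypt-base-like nuclei, the Gsdmc3/Gk cluster, goblet-like nuclei and the Plet1/Car8 cluster, each with 10 members measured. The REV-ERB pair was lower in those 4, joined in the Plet1/Car8 cluster by Per3. The backgrounds were 5.10% higher and 7.38% lower in crypt-base-like nuclei, 6.77% and 9.50% in the Gsdmc3/Gk cluster, 6.34% and 12.2% in goblet-like nuclei, and 7.47% and 11.4% in the Plet1/Car8 cluster. The Meg3/Rian cluster had 2 higher and 2 lower of 8 (10.9% and 11.3%). Macrophage and dendritic-like nuclei had 2 and 2 of 5 (16.5% and 12.3%), and the interstitial cell of Cajal and pericyte-like cluster 2 and 2 of 7 (16.9% and 15.4%). B and T lymphoid-like nuclei had 1 higher and 0 lower of the 2 measured (15.0% and 19.3%).

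Arntl was also set against the sum of its REV-ERB repressors within each library, a measure added after the data were seen. Gene length cancels when this quotient is compared between libraries. Over all nuclei there were 1117 Arntl counts for 3036 of Nr1d1 and Nr1d2 in wild type, a quotient of 0.368 (0.343 to 0.394). The knockout library had 1934 for 1812, a quotient of 1.07 (1.00 to 1.14). In each of the 12 classes compared the knockout quotient exceeded the wild-type one. It went from 0.267 to 0.769 in crypt-base-like nuclei, from 0.344 to 1.19 in colonocyte-like nuclei and from 0.534 to 1.69 in goblet-like nuclei. The Apol10a/Hsd3b3 cluster went from 0.500 (0.361 to 0.687) to 2.52 (1.88 to 3.40). Smooth muscle-like nuclei were lowest in wild type, at 0.148 (0.0865 to 0.241), and had 0.435 (0.310 to 0.604) in the knockout library, or 0.376 (0.242 to 0.571) without the cluster found there alone. In B and T lymphoid-like nuclei, macrophage and dendritic-like nuclei and the interstitial cell of Cajal and pericyte-like cluster the intervals of the libraries overlapped. Enteroendocrine-like nuclei, too few to be compared, went the other way. They had 17 Arntl, 2 Nr1d1 and 23 Nr1d2 counts in wild type, and 6, 1 and 23 in the knockout library.

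**Figure D4:**
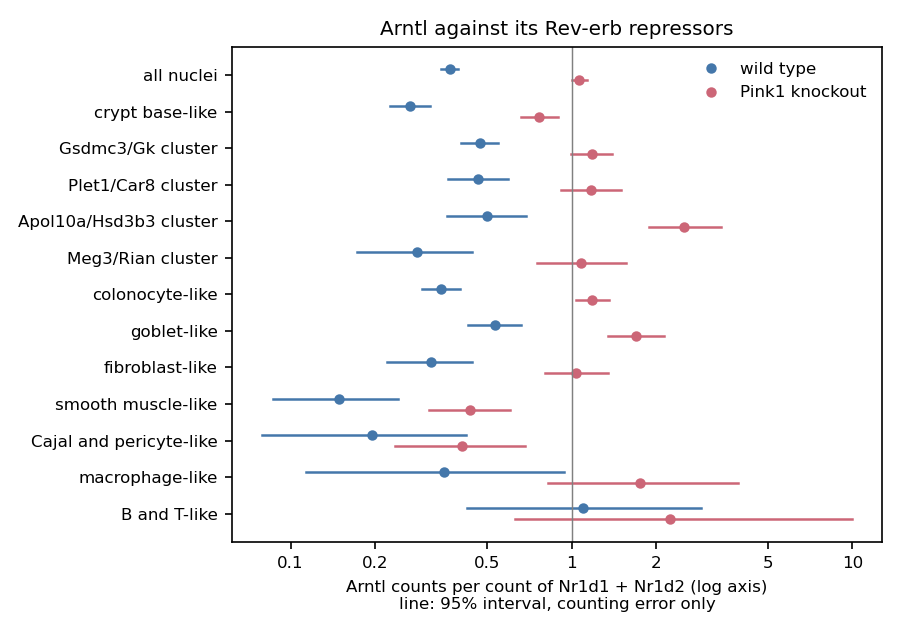
Counts of Arntl per count of Nr1d1 and Nr1d2 summed, in each class or cluster, for wild type (blue) and Pink1 knockout (red) on a log axis, with 95% intervals for counting error as lines. The knockout point lies to the right of the wild-type point in every row, from 0.368 to 1.07 over all nuclei.

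The other clock genes were taken from a list of 22. Over all nuclei 3 were 1.5-fold or more higher, where 6.87% of all measured genes were, 4 were lower, where 8.17% were, and 15 lay within, and their median log2 ratio was -0.06. Among the D-box factors, Dbp was furthest from wild type, with 146 and 32 counts, or 9.68 and 1.73 CPM, a ratio of 0.178 (0.118 to 0.263). In colonocyte-like nuclei Dbp had 55 and 5 counts and in the Gsdmc3/Gk cluster 33 and 1. Tef had 978 and 455 counts. Its ratio was 0.378 (0.338 to 0.423), and its point estimate was below 1 in all 12 classes. Hlf, the other activator of this family, was level at 1.04 (0.7497 to 1.46). Nfil3, which encodes the repressor that competes for the D-box, had 48 and 101 counts, a ratio of 1.71 (1.202 to 2.47). Per3, which carries the D-box letters, Dbp and Tef were all lower in colonocyte-like nuclei. In crypt-base-like nuclei Dbp had a ratio of 0.172, Tef one of 0.289 (0.204 to 0.403) and Per3 one of 0.961. A link between these genes was not tested.

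Inhibitors of the BMAL1 pair were split. Bhlhe40, which encodes a repressor that binds E-boxes, had 2524 and 5339 counts. Its ratio was 1.72 (1.64 to 1.80), and it was 1.5-fold or more higher in 8 of 11 classes. Ciart, which encodes an inhibitor of the pair, had 49 and 22 counts and a ratio of 0.365 (0.210 to 0.615). Cipc was at 0.784 (0.749 to 0.822). Of the ROR receptors, which activate Arntl, Rora had a ratio of 1.35 (1.16 to 1.56) and Rorb one of 0.663 (0.435 to 1.00). Arntl2, the paralogue of Arntl, was at 1.205 (0.999 to 1.46).

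Of the 7 genes of protein stability, Usp2, a ubiquitin-specific protease, was higher at 1.70 (1.40 to 2.06). The other six, among them the kinases Csnk1d (0.922) and Csnk1e (1.01), were within 1.5-fold. The outputs Wee1, Nampt and Noct had ratios of 1.06, 1.09 and 0.955 over all nuclei. By class, Noct was 1.5-fold or more lower in 5 of 9 measured, with a point estimate below 1 in 8. Wee1, measured in 5 classes, ranged from 0.291 in goblet-like nuclei to 2.24 in fibroblast-like nuclei. Its interval lay below 1 in 1 class and above 1 in 1. Nampt was within 1.5-fold in all 10 classes measured.

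Genes with the most similar pattern of levels were sought over 24 profiles, the 12 classes in 2 libraries, among 10297 genes, as Pearson's r of log2 levels. Each library was first centred on its own mean, so r describes the pattern over classes and not the mean shift between libraries. The profiles share library and depth, so r is only a description. Clock was most like Acsm3 (0.934) and Rassf9 (0.920), Arntl most like Letm1 (0.849) and Vdac3 (0.845), and Nr1d1 most like Kalrn (0.909) and Hoxd11 (0.908). For Per3 the nearest was Tspan3 (0.883), for Per1 Rbm12b1 (0.889), for Nr1d2 Ptprg (0.851), for Cry2 E130102H24Rik (0.875), for Npas2 Arfip1 (0.885) and for Per2 D930016D06Rik (0.823). Cry1 had an r of 0.787 with Irf7, 1 of the 3 genes most like it. Arntl and Clock, which work as a pair, had an r of 0.307 with each other. The highest r between members was 0.808, for Nr1d1 with Nr1d2. Cry2 with Nr1d1 (0.709) and Per2 with Per3 (0.690) came next, and Npas2 with Per1 was lowest (-0.398).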

How the data were processed

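Deposited UMI counts per gene and barcode were produced by Cell Ranger 6.1.2, as the deposited file headers state. The submitters' processing notes name mm10 (GRCm38) as the build. The sources used here do not say whether introns were counted. Gene coordinates came from GENCODE M21, which held 32235 of 32285 gene IDs (99.8%).

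Barcodes with at least 500 UMIs, 300 genes and at most 10% mitochondrial UMIs were kept. The highest Scrublet scores (scanpy 1.11.5), 0.8% per 1000 barcodes, were removed as doublets, 632 wild-type and 1180 knockout. Both libraries were clustered jointly (scaling to 10000, 2000 variable genes without the 10 members and 22 other clock genes, 30 components, 20 neighbours, Leiden resolution 1), giving 27 clusters. Marker lists for 20 cell types named clusters by a rule set after the data were seen: mean log2 fold of at least 0.3 and at least 3 markers 2-fold up, with a joint name where a second type reached 0.75 of the best mean with at least 5 markers. The names are rebuilt and may differ from the study's.

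Counts were summed per library and class. Genes needed 20 counts. Poisson and conditional binomial 95% intervals are exact. PCR duplicates are collapsed by UMIs, so intervals cover counting error only. Median log2 ratios have 0.5 added to each count. The interval code was checked on simulated data. The genes named were all members, the 22 other clock genes, 10 immediate early genes and, for each member, up to 3 genes of like pattern (log2 of CPM plus 5). The members and lists were chosen with earlier results of these data known. Alternatives were a stricter (1000 UMIs, 600 genes, 2% mitochondrial) and a looser filter (at least 300 UMIs and 200 genes with mitochondrial UMIs unlimited), no doublet removal, thinning to 500 UMIs, scaling to the median gene, resolutions 0.5 and 2, separate clustering, equal class or cluster mix, removal of the nucleus with the most counts, and subtraction of 10% free RNA. The motif search was repeated with 7 bases. Some genes that these rules take are not reported here. Chosen after the data were seen were leaving out the cluster found in 1 library and leaving out shared barcodes.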

Additional observations from a re-analysis of the deposited data

Results flagged for a closer look

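Per2 lay on opposite sides of 1 in different epithelial nuclei. Its knockout over wild-type ratio was 1.98 in the Meg3/Rian cluster (15 and 31 counts) and 0.441 in colonocyte-like nuclei (63 and 39 counts). It drew attention because the effects of the same contrast have opposite directions with both intervals clear of 1. The difference was not tested, since each genotype is 1 library.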

How the results depend on the processing

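No paired analysis was possible because each genotype has 1 library and no replicate number. Over all nuclei each of the 10 ratios except that of Per2 kept its direction under every alternative run. Thinning each nucleus to 500 UMIs moved the ratios of Arntl to 1.28, Clock to 1.06, Per1 to 3.33, Per2 to 0.916, Cry2 to 0.925, Nr1d1 to 0.516 and Nr1d2 to 0.597, and the median log2 ratio of the 22 other clock genes to -0.18. The median of the 10 ranged from -0.01 to 0.08. Weighting classes alike gave 1.06 for Clock and 0.697 for Per3. Of 831 values within classes and of motif counts under alternatives, 798 stayed within the interval of the reported value, 28 moved outside it and 5 that were 1.5-fold or more apart turned direction. Those 5 were Npas2 in smooth muscle-like nuclei with doublets kept (0.971) and, after thinning, Nr1d1 in goblet-like nuclei (1.02), Nr1d2 in macrophage and dendritic-like nuclei (1.10), and Per3 (1.28) and Nr1d1 (1.12) in the interstitial cell of Cajal and pericyte-like cluster. Among the 28, thinning also put 4 ratios within 1.5-fold on the other side of 1, Per2 in the Gsdmc3/Gk cluster (0.615), Cry1 in the Plet1/Car8 cluster (3.17), Cry2 in smooth muscle-like nuclei (1.15) and Clock in macrophage and dendritic-like nuclei (0.718). Of those that stayed within the interval 19 also crossed 1. The causes were not tested. Requiring 7 bases in place of 6 for the ROR and REV-ERB element left 1 of 4 genes with a match. Depth limits the small classes, where single genes rest on fewer than 50 counts. Thinned ratios rest on fewer still, and thinning was a single random draw. After it Nr1d1 was found in 6 and 7 goblet-like nuclei, and Nr1d2 in 1 and 2 macrophage and dendritic-like nuclei. Cry1 was then found in 1 and 4 nuclei of the Plet1/Car8 cluster.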
